A study of Mus musculus with 18 samples.

Results

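The genes that load and display peptides on MHC class I molecules were followed through 18 K7M2 tumors. They are 9 of the 20878 genes measured: the heavy chains *H2-K1* and *H2-D1*, the light chain *B2m*, the peptide transporter genes *Tap1* and *Tap2*, the loading factor *Tapbp*, the transactivator *Nlrc5*, and the immunoproteasome subunits *Psmb8* and *Psmb9*. The members were chosen by name for their place in this pathway, with earlier results of these data known. All 9 passed the filter on low values in every comparison.

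K7M2 cells come from an osteosarcoma of a Balb/c mouse. They were grafted under the skin of mice aged 6 to 8 weeks, which the study's methods give as female. Y-linked transcripts were nevertheless found in the NSG tumors, as given below, so the sex of those hosts is not certain. The cells carried a control shRNA (*ATRX*CT) or an shRNA against *Atrx* (*ATRX*KD), both delivered by lentivirus into the same line. Balb/c (Balb/cJ) hosts are immunocompetent and syngeneic with the cells. NSG hosts (strain NOD.Cg-Prkdc scid Il2rg tm1Wjl/SzJ) lack T, B, and NK cells but keep myeloid cells. RNA was sequenced from 4 *ATRX*CT tumors (mice 41, 43, 44, and 45) and 4 *ATRX*KD tumors (mice 56, 58, 59, and 60) of Balb/c hosts, and from 5 *ATRX*CT tumors (mice 1 to 5) and 5 *ATRX*KD tumors (mice 26 to 30) of NSG hosts. Whole cages were given one kind of cell, so cage and knock-down cannot be told apart, and neither can host strain and immune status. The 2 questions of the design were how the class I genes differed with the knock-down in each host, and how they differed between hosts with and without T and NK cells.

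A peptide reaches the cell surface in steps. The proteasome cuts proteins into peptides, and after exposure to interferon gamma the inducible subunits made from *Psmb8*, *Psmb9*, and *Psmb10* replace the constitutive ones made from *Psmb5*, *Psmb6*, and *Psmb7*. The transporter formed by TAP1 and TAP2 moves peptides into the endoplasmic reticulum, where tapasin, the product of *Tapbp*, holds the heavy chain next to it until a fitting peptide has bound. The heavy chain travels to the surface together with beta-2 microglobulin, and CD8 T cells read the complex, while NK cells react to its loss. NLRC5 switches on many of these genes together through promoter elements called the W/S, X, and Y boxes.

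Each member was located on mm10 in the deposited annotation. The heavy chains both lie in the MHC on chromosome 17, *H2-K1* on the minus strand at chr17:33996012-34000333 and *H2-D1* on the plus strand at chr17:35263094-35267497, each with 8 exons. Between *H2-K1* and *H2-D1* stand *Psmb9* (minus strand, chr17:34182099-34187330), *Tap1* (plus strand, chr17:34187556-34197225), *Psmb8* (plus strand, chr17:34198195-34201454), and *Tap2* (plus strand, chr17:34204479-34216321). *Tapbp* lies just outside this interval at chr17:33919478-33929290 on the plus strand. The remaining members are *B2m* (plus strand, chr2:122147687-122153082) and *Nlrc5* (plus strand, chr8:94472763-94527272), so 7 of the 9 share chromosome 17. *Psmb9* and *Tap1* point away from each other, and only 225 bases separate their first exons.

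The promoters of the heavy chains, of *B2m*, and of the pair *Tap1* and *Psmb9* are printed because the letters of the regulatory boxes can be read in them. Each is taken from RefSeq on GRCm38.p6 (mm10), from 5′ to 3′ on the strand of the gene, and ends at the base before the annotated start. Capitals mark matches to the searched letters on either strand. *H2-K1* is chr17:34000334-34000583, *H2-D1* chr17:35262844-35263093, and *B2m* chr2:122147437-122147686, and the stretch between *Psmb9* and *Tap1* is chr17:34187331-34187555, read in the direction of *Tap1*.
H2-K1: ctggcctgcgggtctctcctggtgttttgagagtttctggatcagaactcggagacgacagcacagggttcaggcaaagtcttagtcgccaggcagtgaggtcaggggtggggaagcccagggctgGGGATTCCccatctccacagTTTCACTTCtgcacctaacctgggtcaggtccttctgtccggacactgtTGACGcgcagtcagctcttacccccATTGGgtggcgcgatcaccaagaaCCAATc
H2-D1: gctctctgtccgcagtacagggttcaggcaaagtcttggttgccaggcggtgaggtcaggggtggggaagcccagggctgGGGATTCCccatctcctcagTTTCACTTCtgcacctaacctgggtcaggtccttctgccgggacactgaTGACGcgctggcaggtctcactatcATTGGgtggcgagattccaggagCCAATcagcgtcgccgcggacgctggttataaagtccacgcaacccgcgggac
B2m: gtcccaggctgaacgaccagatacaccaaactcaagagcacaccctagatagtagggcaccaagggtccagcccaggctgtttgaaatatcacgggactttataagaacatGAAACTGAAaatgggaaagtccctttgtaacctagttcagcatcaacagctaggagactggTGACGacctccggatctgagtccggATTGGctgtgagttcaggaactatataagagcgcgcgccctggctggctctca
Tap1 and Psmb9: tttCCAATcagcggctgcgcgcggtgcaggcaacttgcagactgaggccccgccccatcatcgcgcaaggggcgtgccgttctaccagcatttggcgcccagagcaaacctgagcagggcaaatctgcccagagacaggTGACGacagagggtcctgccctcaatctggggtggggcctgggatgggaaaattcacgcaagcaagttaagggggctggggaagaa

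The letters searched were TGACG (the X2 box or CRE), ATTGG (the Y box), GAAANNGAA (an interferon-stimulated response element, ISRE), TTCNNNGAA (a GAS element), and GGGANTTCC (kB). RefSeq windows were at hand for 7 members, all but *Tap2* and *Nlrc5*. TGACG was found within 250 bases before the start in 5 of these 7, against 17.8% of 32851 promoter windows, and ATTGG in 6 of 7, against 33.9%. *Tap1* and *Psmb9* share 1 match of each, read from opposite strands. In *H2-K1*, *H2-D1*, and *B2m*, TGACG preceded ATTGG by the same 25 bases, and it began 55, 101, and 78 bases before the start, respectively. GAAANNGAA was found only in *B2m* (7.13% of windows), TTCNNNGAA only in *Psmb8* (7.02%), and GGGANTTCC in no member (1.43%). A pair of altered forms was added after the sequences had been seen. GAANNGAAA, which overlaps the ISRE letters, was found in *H2-K1* and *H2-D1* (6.31% of windows), as was GGGATTCC (0.889%), and the 2 stood 20 bases apart in both genes. These matches describe letters and not binding.

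For each tumor, the expression of a gene is given in FPKM, fragment counts scaled to the length of the transcript and the size of the library, computed by the authors with Cufflinks. Differences are given on the scale of log2 (FPKM + 1), with the standard error (SE) and 95% confidence interval of limma. A gene was called when its Benjamini-Hochberg adjusted p over all genes was under 0.05 and its fold change was at least 2. Libraries held an estimated 15150000 to 24800000 fragments, and between 16108 and 18212 genes were above 0 per tumor. Libraries differed in how the level of a gene depended on the length of its transcript, with a slope between -0.15 and 0.24 log2 units per doubling of length. In 6 libraries (mice 43, 45, 56, 60, 3, and 27) this slope was at least 0.11, and in the other 12 it was at most 0.0016. These long-slope libraries were 2 of 4 in each Balb/c group and 1 of 5 in each NSG group. The Y-linked list (*Eif2s3y*, *Ddx3y*, *Uty*, *Kdm5d*) had a mean log2 of at most 0.0041 in Balb/c tumors and of 1.90 to 3.04 in NSG tumors, although the study's methods give female mice and a female line. Osteoblast markers had a mean log2 of 2.35 to 3.15, with *Ibsp* listed at 0 in all *ATRX*KD tumors and *Bglap* in the Balb/c *ATRX*CT tumors. The Y-linked difference between hosts cannot be told apart from the other differences between them.

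*Atrx*, the target of the shRNA, had 13.4, 26.0, 10.3, and 20.7 FPKM in the Balb/c *ATRX*CT tumors and 21.5, 7.88, 9.11, and 17.3 FPKM in the Balb/c *ATRX*KD tumors. Levels in NSG tumors were 16.2, 11.6, 24.4, 15.1, and 20.5 FPKM with the control shRNA and 8.42, 16.4, 8.59, 8.88, and 8.60 FPKM with the *Atrx* shRNA. The groups overlapped in both hosts. The difference was -0.34 (SE 0.36, adjusted p = 0.999, limma) in Balb/c hosts and -0.74 (SE 0.22, adjusted p = 0.061, limma) in NSG hosts, so *Atrx* was not called in either. It also moved with the length slope of the library (*r* = 0.93 over 18 deviations from group means, which share their library), and bulk RNA holds the *Atrx* of host cells as well. With the trend along transcript length removed, log2 values in NSG hosts were 4.01 to 4.40 in *ATRX*CT and 3.44 to 3.86 in *ATRX*KD tumors. The Balb/c groups still overlapped. For the K7M2 line itself, the paper reports loss of ATRX protein by western blot.

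Class I genes were among the most strongly expressed genes of these tumors, with and without a lymphoid host. *B2m*, the light chain of every class I molecule, had a mean of 1287 FPKM over the 18 tumors (901.5 to 1462 FPKM) and ranked 34th of all genes. *H2-D1* and *H2-K1*, classical heavy chains that present peptides to CD8 T cells, followed with 772.2 FPKM (553.4 to 940.7) and 358.6 FPKM (277.9 to 443.2). The reference genome is of strain C57BL/6J, and heavy chains are polymorphic between strains, so these are levels of reads that aligned to the reference alleles. Of the 75-base windows of their transcripts, 1.55% in *H2-K1* and 6.90% in *H2-D1* also occurred in another gene. *H2-L*, a further class I chain that was looked for, had no entry in the matrix. Whether its reads counted toward *H2-D1* or *H2-K1* was not tested.

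The other members formed a fixed order below them. *Psmb8*, an inducible catalytic subunit, had 262.8 FPKM (183.9 to 332), *Tapbp* 181 FPKM (127.9 to 218.5), and *Psmb9*, a further inducible catalytic subunit, 108.7 FPKM (57.7 to 159.4). The transporter genes stood at 63.9 FPKM for *Tap1* (37.2 to 99.5) and 48.8 FPKM for *Tap2* (26.9 to 75.01), and *Nlrc5* was lowest with 12.2 FPKM (6.51 to 21.6), still above 66.7% of genes. Each gene exceeded the next in 18 of 18 tumors, except that *Psmb8* exceeded *Tapbp* in 17 of 18, so no neighboring pair changed places in more than 1 tumor. The ratio of the highest to the lowest tumor was between 1.595 for *H2-K1* and 3.32 for *Nlrc5*. The mean log2 (FPKM + 1) over the 9 members was 7.37 ± 0.090 and 7.45 ± 0.067 in Balb/c *ATRX*CT and *ATRX*KD tumors (SD, n = 4 each), against 7.234 ± 0.13 and 7.245 ± 0.13 in the NSG groups (SD, n = 5 each).

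**Figure D1:**
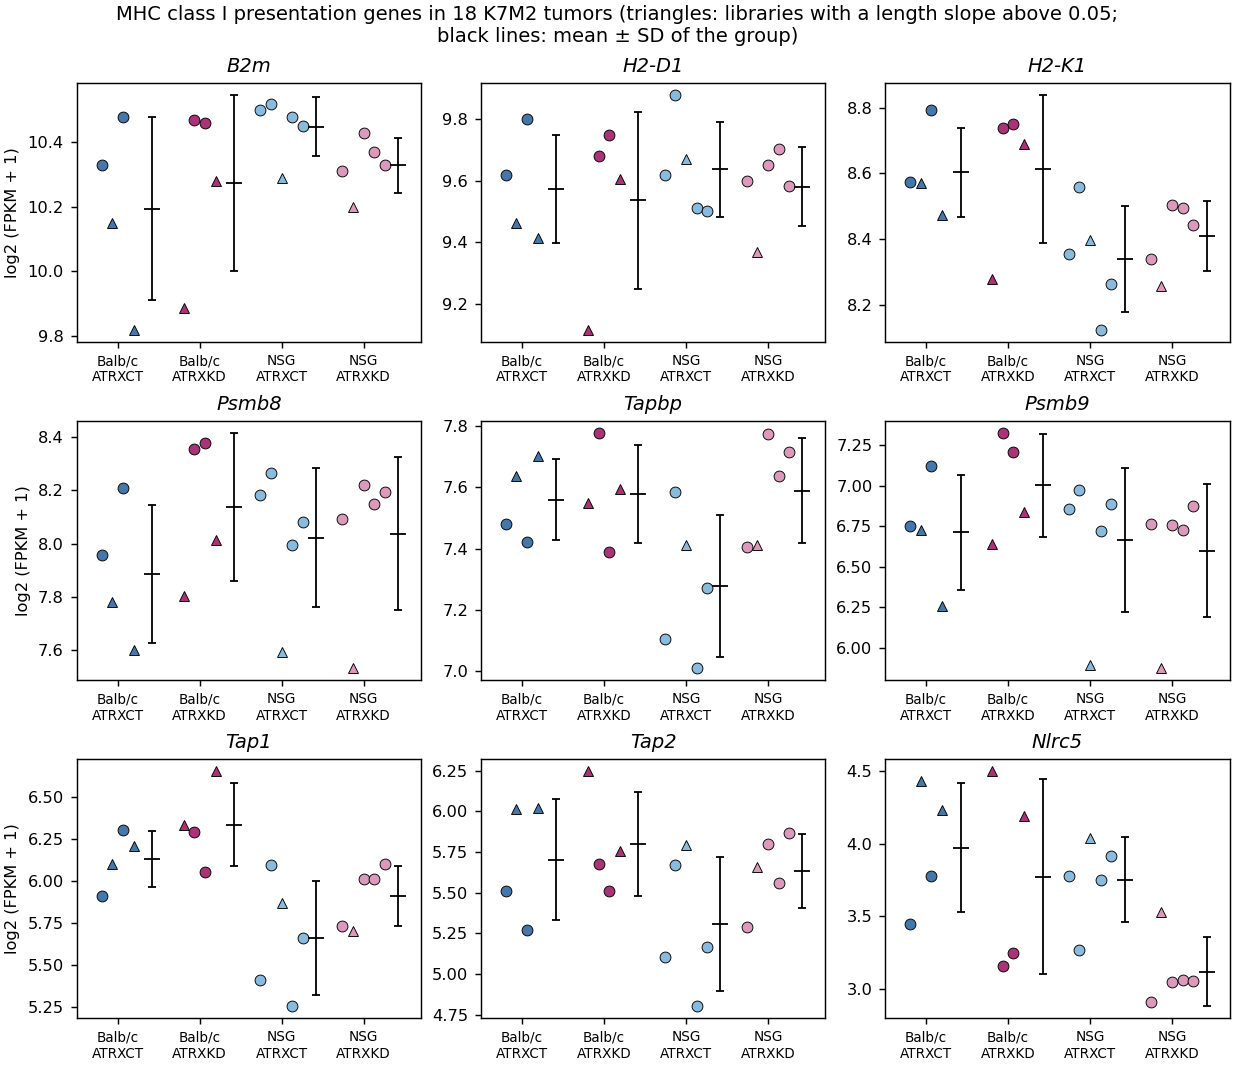
Level of each member in every tumor, as log2 (FPKM + 1), by host and shRNA; circles are libraries with a flat length slope, triangles are the 6 long-slope libraries, and the black lines give the mean ± SD of the group. Triangles lie low for *B2m*, *Psmb8*, and *Psmb9* and high for *Nlrc5*, and 4 of the 5 NSG *ATRX*KD tumors have *Nlrc5* at 6.51 to 7.35 FPKM, below every other tumor.

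The first question was whether the class I genes differed with the knock-down in Balb/c hosts. No member was called by limma (0 of 9, and 0 of 9 at an unadjusted p under 0.05), where 0.0068% of the 14701 genes tested were called, which is 1 gene, with or without the fold threshold. For the knock-down in Balb/c tumors the paper, with DESeq, reports many more genes. As limma on FPKM called almost none, the absence of calls does not show that the members were unchanged. Differences ran from -0.20 for *Nlrc5* to 0.29 for *Psmb9*, each with adjusted p = 0.999. The median over the members was 0.080, against -0.0032 over all genes, and 7 of 9 were above 0.

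*Psmb9* had 106.6, 104.8, 138.1, and 75.5 FPKM in Balb/c *ATRX*CT tumors, against 98.7, 159.4, 146.7, and 113.6 FPKM in *ATRX*KD tumors. The *ATRX*KD tumor was higher in 12 of 16 pairs, and the difference of 0.29 had an interval of -0.20 to 0.78. *Psmb8* behaved alike in size, with 247.6, 218.7, 294.8, and 192.7 FPKM against 222.0, 326.6, 332.0, and 257.3 FPKM and a difference of 0.25 (SE 0.20, interval -0.19 to 0.70). For both subunits the groups overlapped, with the long-slope libraries at the low end of each.

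The heavy chains and *B2m* had differences within 0.080 of 0 and still varied between tumors. *H2-K1* had 380.2, 379.3, 443.2, and 354.6 FPKM with the control shRNA and 309.5, 426.1, 429.6, and 412.2 FPKM with the *Atrx* shRNA, a difference of 0.011 (interval -0.38 to 0.40). Mouse 56 was the lowest of its group for *H2-K1*, *H2-D1* (553.4 FPKM), and *B2m* (944.9 FPKM), and had the steepest length slope of all libraries. The differences of *H2-D1* (-0.037, interval -0.54 to 0.46) and *B2m* (0.080, interval -0.52 to 0.67) were below their standard errors. For *Tap1* the difference was 0.20 (SE 0.15), for *Tap2* 0.095 (SE 0.22), for *Tapbp* 0.017 (SE 0.14), and for *Nlrc5* -0.20 (SE 0.34). Every member's groups overlapped, as did those of all but 3.18% of the genes tested. The widest bounds of the intervals were 0.78 higher (*Psmb9*) and 0.96 lower (*Nlrc5*) on the log2 scale.

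In NSG hosts, *Nlrc5* was the member with the largest difference between *ATRX*KD and *ATRX*CT tumors, and the TAP transporter genes and *Tapbp* had differences of the opposite sign. *Nlrc5*, the transactivator of class I genes, had 12.7, 8.64, 15.5, 12.5, and 14.1 FPKM in *ATRX*CT tumors and 6.51, 10.6, 7.29, 7.35, and 7.30 FPKM in *ATRX*KD tumors. The *ATRX*KD tumor was higher in 1 of 25 pairs, that of mouse 27 over mouse 2, and mouse 27 was also the only long-slope library of its group. The difference was -0.63 (SE 0.16, interval -0.97 to -0.28). Its adjusted p = 0.039 (limma) was under 0.05, but the difference was short of the 2-fold threshold, so *Nlrc5* was not called.

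No member was called in NSG hosts (0 of 9 by limma, with 1 higher and 1 lower at an unadjusted p under 0.05), where 0.464% of 14654 genes were called and 2018 were higher and 1835 lower at that unadjusted p. Without the fold threshold, 1 of 9 members passed, where 6.78% of genes did. The *Nlrc5* difference kept its sign when any single tumor was left out (-0.75 to -0.56), but its adjusted p then ran from 0.019 to 0.11 and was under 0.05 in 3 of the 10 fits, those without mouse 2, 3, or 27. In 1 fit of all 4 groups the adjusted p was 0.13, the highest of the other processing choices, and the lowest was 0.00056 with library weights. *Nlrc5* followed the length slope of the library (*r* = 0.86, n = 18). With the class of the slope as a term, chosen after seeing the data, the difference was -0.63 (adjusted p = 0.010, limma), and over the flat-slope tumors it was -0.66 (adjusted p = 0.022, limma).

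Marker lists of other cells differed in the same comparison. The mean of the 9 macrophage markers was between 7.80 and 8.46 in NSG *ATRX*CT tumors and between 7.36 and 7.95 in NSG *ATRX*KD tumors. Differences were below 0 for 8 of these 9, of which 3 had an adjusted p under 0.05, and none was at 0. The exception was *Csf1r*, with a mean of 252.6 FPKM in *ATRX*CT against 320.8 FPKM in *ATRX*KD tumors. Its difference was 0.37, at an unadjusted p under 0.05 (limma). *Ptprc*, the leukocyte antigen CD45, had a mean of 26.6 FPKM against 21.0 FPKM. The endothelial mean was 1.70 against 2.30, with 5 of 6 differences above 0 and 2 with an adjusted p under 0.05. With the knock-down, all 4 Y-linked genes were lower (unadjusted p under 0.05), with a median difference of -0.60, and 3 had an adjusted p under 0.05. The part of these differences in that of *Nlrc5* was not tested. In bulk tumors, fewer cells of a type and less RNA per cell cannot be told apart.

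The transporter and loading genes had positive differences in NSG *ATRX*KD tumors, none of which passed the adjustment. *Tapbp* had 136.5, 191.1, 169.4, 127.9, and 153.3 FPKM against 168.3, 169.4, 218.2, 197.9, and 208.9 FPKM, a difference of 0.31 (SE 0.13, adjusted p = 0.15, limma), with the *ATRX*KD tumor higher in 21 of 25 pairs. *Tap1* and *Tap2*, which form 1 transporter, differed by 0.25 (SE 0.16, adjusted p = 0.33) and 0.33 (SE 0.19, adjusted p = 0.29), each higher in 19 of 25 pairs. With library weights, these 3 genes reached 0.50, 0.48, and 0.60 with adjusted p = 0.0028, 0.0082, and 0.0054 (limma), still short of a 2-fold change. Under the other processing choices, the adjusted p of each of the 3 was at least 0.077. *H2-K1*, *H2-D1*, *B2m*, *Psmb8*, and *Psmb9* were within 0.12 of 0, with adjusted p between 0.57 and 0.97. The groups of every member overlapped, as for all but 7.5% of genes.

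**Figure D2:**
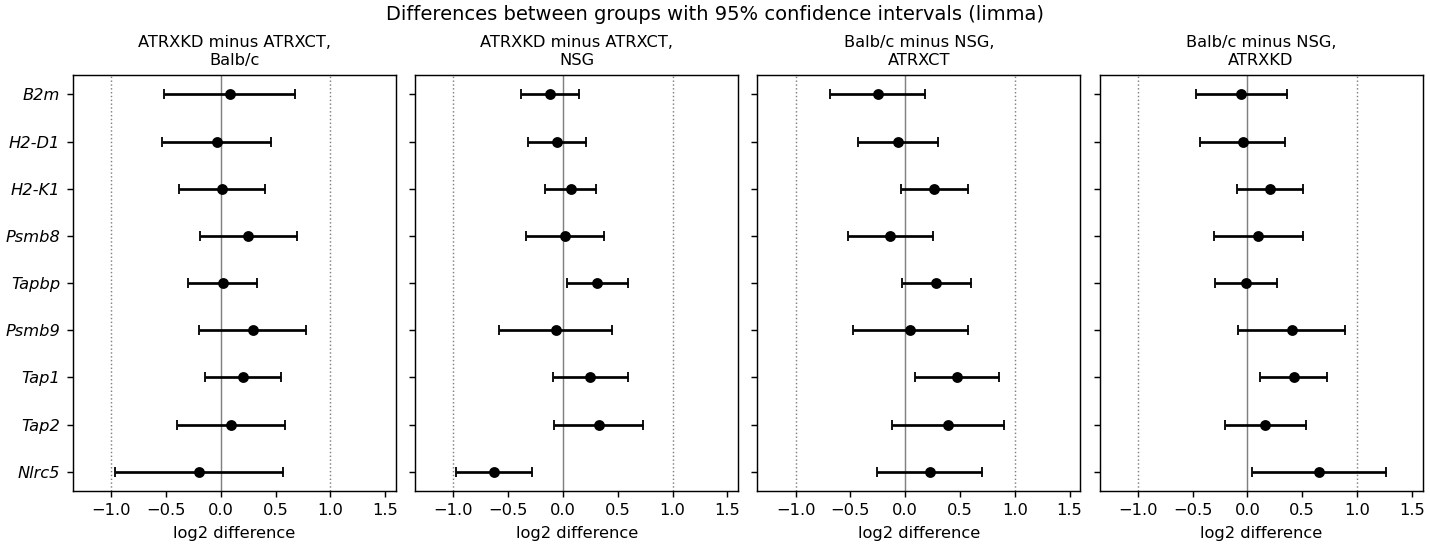
Difference of each member between groups on the log2 (FPKM + 1) scale, with 95% confidence intervals from limma; solid lines mark 0 and dotted lines a 2-fold change. None of the points lies beyond a dotted line, and in NSG hosts the interval of *Nlrc5* (-0.97 to -0.28) lies below 0.

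Whether the knock-down difference depended on the host was tested as an interaction, the Balb/c difference minus the NSG difference. No member was called (0 of 9, and 0 of 9 at an unadjusted p under 0.05), and 0% of the 14803 genes were, also without the fold threshold. Across all genes, 659 were higher and 868 lower at an unadjusted p under 0.05. For *Nlrc5* the interaction was 0.43 (SE 0.37, interval -0.35 to 1.21, adjusted p = 0.75), and for *Tapbp* -0.30 (SE 0.18, adjusted p = 0.62). The *Nlrc5* difference in NSG hosts was therefore not shown to differ from that in Balb/c hosts.

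The second question was how class I genes differed between the hosts. As lists, T and NK cell markers separated them widely. The mean log2 of the 10 T cell markers was 1.92 to 2.56 and 1.89 to 2.44 in Balb/c *ATRX*CT and *ATRX*KD tumors, against 0.15 to 0.45 and 0.24 to 0.33 in NSG tumors. For the 8 NK and cytotoxic markers it was 3.01 to 3.47 and 2.70 to 4.202, against 0.13 to 0.25 and 0.088 to 0.23. *Cd3g* and *Ncr1* were listed at 0 in every NSG *ATRX*CT tumor. Between *ATRX*CT tumors, 7 of 10 T cell and 8 of 8 NK and cytotoxic genes were called higher in Balb/c hosts, where 1.43% of all genes were called. Between *ATRX*KD tumors these were 8 of 10 and 7 of 8, where 1.39% were called. *Cd4* separated the hosts little, with means of 4.44 FPKM in Balb/c and 3.52 FPKM in NSG *ATRX*CT tumors, the latter reaching 5.62 FPKM. The B cell list was low in both hosts, with means of 0.51 and 0.52 in Balb/c *ATRX*CT and *ATRX*KD tumors and 0.52 and 0.46 in NSG tumors. In the endothelial list, 1 of 6 genes was called higher in Balb/c hosts among *ATRX*CT tumors and 0 among those with *ATRX*KD, with median differences of 0.74 and 0.52. In the same NSG tumors, no *B2m* value was under 1177 FPKM and no *H2-K1* value under 277.9 FPKM, and no member was called between hosts with either shRNA.

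**Figure D3:**
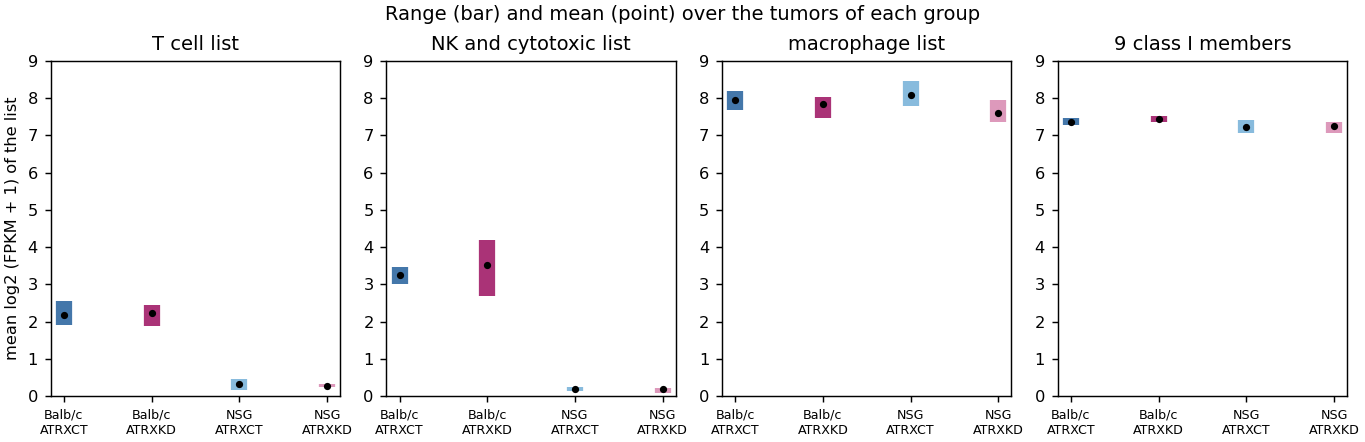
Mean log2 (FPKM + 1) over the T cell, NK and cytotoxic, and macrophage markers and over the 9 class I members; bars span the lowest to the highest tumor of a group and points are group means. The T and NK lists drop to between 0.18 and 0.32 in NSG hosts, whereas the class I mean stays between 7.23 and 7.45 in all 4 groups.

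Between *ATRX*CT tumors of the 2 hosts, *Tap1* had the largest difference. It had 59.2, 67.7, 77.9, and 72.9 FPKM in Balb/c tumors and 41.5, 67.4, 57.5, 37.2, and 49.6 FPKM in NSG tumors. The Balb/c tumor was higher in 19 of 20 pairs, and the difference was 0.47 (SE 0.17, interval 0.09 to 0.85), with adjusted p = 0.18 (limma). With library weights the adjusted p was 0.038 at a difference of 0.50, and under the other choices it reached 0.34. *Tap2* (0.39, SE 0.23), *Tapbp* (0.28, SE 0.14), and *Nlrc5* (0.22, SE 0.22) had the same sign, with adjusted p between 0.30 and 0.57.

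The heavy chains did not share 1 direction in this comparison. Because they are polymorphic between strains, host differences in level and in alignment to the reference alleles cannot be told apart. *H2-K1* had 326.0, 376.1, 336.1, 277.9, and 306.2 FPKM in NSG *ATRX*CT tumors and was higher in the Balb/c tumor in 19 of 20 pairs, with a difference of 0.26 (SE 0.14, adjusted p = 0.31). *H2-D1* (-0.063, SE 0.17) and *B2m* (-0.25, SE 0.20) were below 0. Quantile normalization turned both signs, to 0.20 and 0.11. *B2m* had 1287, 1134, 1426, and 901.5 FPKM in Balb/c and 1442, 1462, 1253, 1428, and 1395 FPKM in NSG tumors, and its lowest Balb/c values came from the long-slope libraries. *Psmb8* (-0.14, SE 0.17) and *Psmb9* (0.046, SE 0.24) differed by less than their standard errors. In all, 0 of 9 members were called (1 higher at an unadjusted p under 0.05), where 1.43% of 14828 genes were, or 3.18% without the fold threshold. The groups of all members overlapped, as for all but 7.57% of genes. The members' median was 0.22, against 0.0084 over all genes.

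Between *ATRX*KD tumors, the leading members were *Nlrc5*, *Tap1*, and *Psmb9*. *Nlrc5* had 21.6, 7.94, 8.48, and 17.2 FPKM in Balb/c tumors, against 6.51 to 10.6 FPKM in NSG tumors. The difference was 0.65 (SE 0.28, interval 0.039 to 1.27, adjusted p = 0.27), and the high Balb/c values were those of the long-slope libraries of mice 56 and 60. Over the flat-slope tumors, *Nlrc5* differed by 0.18 (adjusted p = 0.33), and without mouse 56 by 0.41 (adjusted p = 0.50).

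*Tap1* had 79.7, 77.3, 65.4, and 99.5 FPKM in Balb/c *ATRX*KD tumors and 52.1, 51.2, 63.4, 63.3, and 67.6 FPKM in NSG *ATRX*KD tumors. The Balb/c tumor was again higher in 19 of 20 pairs, with a difference of 0.42 (SE 0.14, interval 0.12 to 0.73, adjusted p = 0.15, limma). Over the flat-slope tumors this was 0.21 (adjusted p = 0.35). *Psmb9* was higher in 15 of 20 pairs, by 0.40 (SE 0.22, adjusted p = 0.40). Its lowest NSG value, 57.7 FPKM, belonged to the long-slope library of mouse 27, and the other 4 were 104.9 to 116.4 FPKM. With the slope class as a term the difference was 0.61 (adjusted p = 0.0054), and over the flat-slope tumors 0.49 (adjusted p = 0.021), both chosen after seeing the data and both under a 2-fold change. The adjusted p under the other choices was 0.053 to 0.47.

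*H2-K1* differed by 0.21 (SE 0.14), *Tap2* by 0.16 (SE 0.17), *Psmb8* by 0.10 (SE 0.18), and *H2-D1*, *B2m*, and *Tapbp* by -0.044, -0.054, and -0.011. Of the 9 members, 0 were called (2 higher at an unadjusted p under 0.05), where 1.39% of 14669 genes were, or 3.64% without the fold threshold. All groups overlapped, as for all but 8.13% of genes. The median was 0.16, against -0.016 over all genes. The *ATRX*CT and *ATRX*KD host comparisons use different tumors.

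The exchange of proteasome subunits was measured as a ratio within each library, which is free of scaling between libraries. *Psmb9* encodes the inducible partner of the subunit made from *Psmb6*. The *Psmb9* to *Psmb6* ratio of FPKM was 0.561, 0.732, 0.585, and 0.619 in Balb/c *ATRX*CT tumors and 0.485, 0.550, 0.402, 0.411, and 0.505 in NSG *ATRX*CT tumors. In *ATRX*KD tumors, it was 0.779, 0.757, 0.612, and 0.725 in Balb/c hosts and 0.454, 0.396, 0.514, 0.494, and 0.584 in NSG hosts. Every Balb/c tumor lay above every NSG tumor with the same shRNA, although in the control tumors the gap between mouse 41 and mouse 2 was small. Single genes separated the hosts in this way, in either direction, in 7.57% of cases between *ATRX*CT and 8.13% between *ATRX*KD tumors. No such share was taken for ratios.

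The log2 ratio of *Psmb9* to *Psmb6* differed between hosts by 0.41 in *ATRX*CT and by 0.56 in *ATRX*KD tumors. Each had p = 0.016 (two-sided exact permutation test, 126 arrangements) and adjusted p = 0.095 over 12 ratio tests. Neither passed the adjustment. Leaving out single tumors gave 0.33 to 0.47 and 0.49 to 0.64. Over the flat-slope tumors the values were 0.24 and 0.42, and against the mean of the 3 constitutive subunits 0.28 and 0.59. Both transcripts are short (806 and 1036 bases), and both followed the length slope closely (*r* = -0.83 and -0.97, n = 18).

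The other pairs of subunits differed less. The *Psmb8* to *Psmb5* ratio had geometric means of 3.88 and 4.62 in Balb/c *ATRX*CT and *ATRX*KD tumors, against 3.59 and 3.57 in NSG tumors. Its host difference in log2 was 0.11 (adjusted p = 0.78, exact permutation test) and 0.37 (adjusted p = 0.29, exact permutation test), and the groups overlapped. For *Psmb10* to *Psmb7* the geometric means were 0.557, 0.575, 0.533, and 0.510 in Balb/c *ATRX*CT, Balb/c *ATRX*KD, NSG *ATRX*CT, and NSG *ATRX*KD tumors. With the knock-down within a host, the 6 ratio differences ran from -0.063 to 0.25, with adjusted p between 0.43 and 0.94 (exact permutation test).

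Members did not move as 1 block from tumor to tumor. After subtraction of group means, 23 of the 36 pairs of members were correlated positively and 13 negatively over the 18 tumors, with a median *r* of 0.17. The points share their libraries, so depth and length slope enter each value. *Psmb8* and *Psmb9* (*r* = 0.97) and *H2-K1* and *H2-D1* (*r* = 0.95) moved most closely together, and *B2m* went with *Psmb8* (*r* = 0.82). *Tap1*, *Tap2*, and *Tapbp* formed a further set, with *r* = 0.77 for *Tap1* and *Tapbp* and 0.73 for *Tap2* and *Tapbp*.

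*Psmb9* and *Tap1*, whose starts are only 225 bases apart, showed no correlation (*r* = 0.0026). *Nlrc5* was correlated negatively with *H2-D1* (*r* = -0.78), *Psmb8* (-0.78), *B2m* (-0.76), *Psmb9* (-0.67), and *H2-K1* (-0.63). With *Tapbp* (-0.064) and *Tap1* (0.12) its correlation was near 0, and with *Tap2* it was 0.47. The same groups appear along the length slope of the library. The longest member transcript, that of *Nlrc5* (6945 bases), went up with the slope (*r* = 0.86) and so did *Tap2* (2490 bases, *r* = 0.74). The short transcripts of *Psmb8* (1223 bases), *B2m* (858 bases), and *Psmb9* went down (*r* = -0.89, -0.87, and -0.83), as did *H2-D1* (-0.72) and *H2-K1* (-0.56). *Tap1* and *Tapbp* were nearly level with it (*r* = 0.23 and 0.21). Its part in the correlations between members was not tested.

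**Figure D4:**
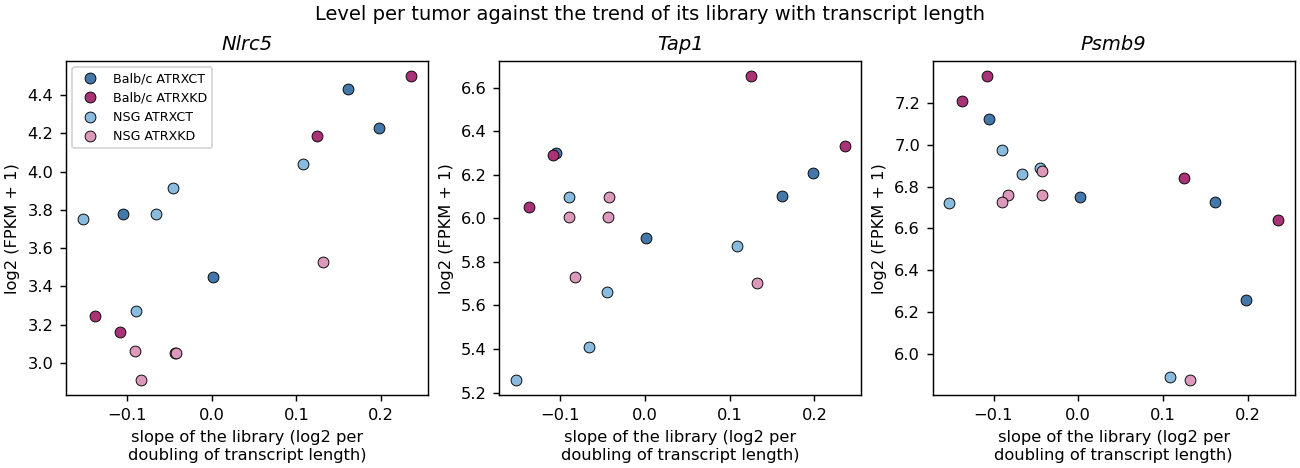
Level of *Nlrc5*, *Tap1*, and *Psmb9* per tumor, as log2 (FPKM + 1), against the slope of its library along transcript length; each point is a tumor and colors mark host and shRNA. *Nlrc5* climbs and *Psmb9* descends from left to right (*r* = 0.86 and -0.83 within groups), while *Tap1* shows little trend (*r* = 0.23).

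Of 12075 genes outside the member, pathway, and marker lists (mean of 1 FPKM or more), those most like the mean of the members within groups were *Gbp3* (*r* = 0.90), *Irgm2* (0.89), *Drg2* (0.86), *Gm4951* (0.85), and *Igtp* (0.84), over 18 tumors that share their libraries. *Gbp3*, *Irgm2*, and *Igtp* encode GTPases that interferon gamma induces. *Gbp3* had group means of 33.2, 43.3, 38.9, and 37.3 FPKM, in the order Balb/c *ATRX*CT, Balb/c *ATRX*KD, NSG *ATRX*CT, and NSG *ATRX*KD. *Gm4951* differed more between hosts in level, with 14.2, 16.1, 10.3, and 7.10 FPKM. Of the genes of the pathway lists, *H2-T3* (0.87) and *H2-Q2* (0.84) were close to the members as well.

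Around the members, some nonclassical class I chains differed between hosts. Differences between host strains in how reads of these chains align to the reference were not tested. *H2-T23*, which encodes Qa-1, a ligand of the NKG2A receptor of NK and T cells, had 103.7 to 178.7 FPKM in Balb/c *ATRX*CT tumors and 65.4 to 88.6 FPKM in NSG *ATRX*CT tumors. It differed by 0.80 (SE 0.16, adjusted p = 0.023, limma), and by 0.96 (SE 0.17, adjusted p = 0.0097, limma) between *ATRX*KD tumors, just under 2-fold. Of its 75-base windows, 13.1% occur in other genes, mainly *Gm7030*. *H2-T24* differed by 0.85 (SE 0.19, adjusted p = 0.036) between *ATRX*CT tumors, and was called between *ATRX*KD tumors (1.22, SE 0.29, adjusted p = 0.046, limma). Its values there were 26.1, 30.0, 22.8, and 28.1 FPKM in Balb/c and 7.84, 5.42, 18.4, 12.1, and 15.1 FPKM in NSG hosts, without overlap, as for 8.13% of genes. With library weights the difference was 0.93, and over the flat-slope tumors 0.98 (adjusted p = 0.13), so this call was lost.

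*H2-Q7*, a Qa-2 gene, ran the other way between *ATRX*CT tumors (-0.80, SE 0.13, adjusted p = 0.0071), but 21.7% of its 75-base windows occur in other genes, mainly *H2-Q6*. Of the 19 other chains tested, 0 were called between *ATRX*CT tumors, with 6 higher and 2 lower at an unadjusted p under 0.05, where 1699 and 1167 of 14828 genes were. Between *ATRX*KD tumors, 1 was called, with 9 higher and 1 lower, where 1457 and 954 of 14669 genes were. With the knock-down, 0 of 19 were called in either host, and *H2-M2* differed most, by -0.42 (adjusted p = 0.999) in Balb/c and -0.51 (adjusted p = 0.045, under 2-fold) in NSG hosts.

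*Ifng*, the cytokine that induces the class I genes, had 0.619, 1.31, 0.792, and 0.794 FPKM in Balb/c *ATRX*CT tumors and 1.49, 0.689, 1.07, and 1.89 FPKM in Balb/c *ATRX*KD tumors. It was listed at 0 in all NSG tumors but that of mouse 26, with 0.104 FPKM. The host difference on the log2 (FPKM + 1) scale was 0.90 (adjusted p = 0.00042) in *ATRX*CT and 1.13 (adjusted p = 0.00099, called) in *ATRX*KD tumors, and these sizes depend on the pseudocount. *Irf1*, an interferon-induced transcription factor, had means of 87.3 and 95.8 FPKM in Balb/c *ATRX*CT and *ATRX*KD tumors against 73.8 and 77.2 FPKM in NSG tumors, with host differences of 0.24 (adjusted p = 0.28, limma) and 0.31 (adjusted p = 0.21, limma). *Irf8*, an interferon-induced factor of myeloid cells, differed between *ATRX*KD tumors by 0.91 (adjusted p = 0.0012, under 2-fold) and with the knock-down in NSG hosts by -0.49 (adjusted p = 0.043).

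In the remaining lists of the class I pathway, limma called 0 genes in any comparison. Among 5 genes of peptide trimming and loading, *Erap1*, which trims peptides to length, differed by 0.46 (adjusted p = 0.14) between *ATRX*CT tumors of the hosts, *Calr*, a chaperone of the loading complex, by -0.34 (adjusted p = 0.35) between *ATRX*KD tumors, and *Canx*, a chaperone of new heavy chains, by 0.31 (adjusted p = 0.067) with the knock-down in NSG hosts. *Psme2*, a part of the proteasome activator PA28, differed by -0.51 (adjusted p = 0.28) between *ATRX*CT tumors. Among 11 promoter factors, *Ciita*, the class II counterpart of *Nlrc5*, differed between hosts by 0.92 (adjusted p = 0.15) and 0.97 (adjusted p = 0.079). *Nfkb1* and *Rela*, which encode subunits that bind kB sites, differed with the knock-down by 0.39 in NSG hosts (adjusted p = 0.11) and by -0.39 in Balb/c hosts (adjusted p = 0.999). Of the 3 constitutive subunits, *Psmb7* differed most with the knock-down in Balb/c hosts (-0.12), *Psmb6* with the knock-down in NSG hosts (-0.12) and between *ATRX*CT tumors (-0.36), and *Psmb5* between *ATRX*KD tumors (-0.27). For the knock-down difference between hosts, the lists led with *Irf8* (0.63, adjusted p = 0.29), *Rela* (-0.55, adjusted p = 0.47), *H2-Q7* (0.49, adjusted p = 0.44), and *Canx* (-0.43, adjusted p = 0.30).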

How the data were processed

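RNA of 18 K7M2 tumors was grouped by the host strain and shRNA in the labels. The authors sequenced stranded, ribo-depleted libraries of total RNA and aligned the reads to mm10 (STAR 2.6.0c, Cufflinks 2.2.1 and DESeq are listed in the submitters' processing notes). The deposited matrix holds log2 (FPKM + 1) with no stated normalization between libraries, for 20970 entries, of which 92 are ERCC spike-ins that were left out. The base of the log was settled from the values. Whole reads were not recovered: at the estimated depths, the low values came to whole fragments (tolerance 0.1) in 39.1% to 45.4% of cases per library, against 20% for values at random. Differences were therefore fitted with limma 3.58.1 (lmFit, eBayes with trend; R 4.3.3) on these log2 values, a pseudocount of 1, restricted to genes averaging 0.1 FPKM or more, with Benjamini-Hochberg adjustment over all genes. Each comparison used only its groups, and the interaction used all 4. Ratios were tested by exact permutation over all arrangements of the tumors, with code that was compared with scipy 1.17.1. The steps were tested on simulated data.

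The members and lists were chosen with earlier results of these data known. Named genes are the members, *Atrx*, each list's called or most different genes, and the 5 genes most like the members. *Ptprc*, *H2-T23*, *H2-T3*, *H2-Q2*, and *Irf1* were chosen after their values were seen. Nothing in the labels shows how many cultures the grafted cells came from, so p-values measure the spread between animals. Tumors carry mouse numbers, and alternatives covered pseudocount, scaling, filters, weights, fold threshold, length trend, all groups in 1 fit, and single tumors left out. The slope class as a term and the flat-slope tumors alone were added after seeing the data.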

Additional observations from a re-analysis of the deposited data

Results flagged for a closer look

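In 10 of 84 groups of 4 or 5 tumors tested, 1 tumor lay apart from the others by Dixon's test, where chance gives about 1 in 20, or 4.2. Of the members, *H2-K1* in Balb/c *ATRX*KD mouse 56 was low, with a log2 (FPKM + 1) of 8.278 against 8.691 to 8.75 in the other tumors. In NSG *ATRX*KD tumors, mouse 27 was high for *Nlrc5* (3.529 against 2.909 to 3.062) and low for *Psmb8* (7.531 against 8.093 to 8.222) and *Psmb9* (5.876 against 6.727 to 6.875). *Psmb9* was also low in NSG *ATRX*CT mouse 3 (5.892 against 6.721 to 6.974). These 3 libraries had length slopes of 0.236 (mouse 56), 0.132 (mouse 27), and 0.108 (mouse 3), all of the long-slope class, and the part of the slope was not tested.

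The log2 ratio of *Psmb10* to *Psmb7* was high in NSG *ATRX*CT mouse 2 (-0.590 against -1.015 to -0.955), a flat-slope library. Marker lists stood apart in 4 groups. The endothelial mean was 2.497 in NSG *ATRX*CT mouse 3 (others 1.35 to 1.628), and the osteoblast mean 3.146 in Balb/c *ATRX*KD mouse 56 (others 2.598 to 2.649). The keratinocyte mean was 3.448 in Balb/c *ATRX*CT mouse 45 (others 0.307 to 0.377) and 1.386 in Balb/c *ATRX*KD mouse 60 (others 0.304 to 0.384). *B2m* had its lowest value of all tumors in mouse 45, 901.5 FPKM.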

How the results depend on the processing

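No member was called in any comparison under 53 of the 54 alternatives to a count, nor when single tumors were left out (0 to 0 in each of the 5 comparisons). The exception was the knock-down in NSG hosts with no fold threshold, where the count was 1 and *Nlrc5* passed with -0.63. No paired analysis was possible because mouse numbers are not shared between groups. Member differences were followed for all members in each host and shRNA comparison, but only for *Nlrc5* and *Tapbp* in the knock-down difference between hosts. Among those not followed there, *B2m* ran from -0.033 to 0.26 and *H2-D1* from -0.14 to 0.043 over the processing choices. Apart from leaving out tumors, 379 of the differences followed kept their sign and their side of the threshold, 36 changed sign, and 1 passed. All 36 missed the threshold before and after, and the cause was not tested. With quantile normalization, the sign turned to *H2-K1* -0.074, *B2m* -0.024, and *Tapbp* -0.030 for knock-down in Balb/c, *H2-D1* 0.017 and *B2m* 0.0087 for knock-down in NSG, *H2-D1* 0.20, *B2m* 0.11, and *Psmb8* 0.092 for hosts with *ATRX*CT, *H2-D1* 0.056, *B2m* 0.081, and *Tapbp* 0.14 for hosts with *ATRX*KD. With removal of the length trend, the sign turned to *H2-K1* -0.017 for knock-down in Balb/c, *Psmb9* 0.021 for knock-down in NSG, *H2-D1* 0.018 and *Psmb8* 0.0074 for hosts with *ATRX*CT, *B2m* 0.025 for hosts with *ATRX*KD. With library weights, the sign turned to *H2-D1* 0.077 for knock-down in Balb/c, *H2-D1* 0.046 for knock-down in NSG, *H2-D1* 0.021, *Nlrc5* -0.076, and *Psmb9* -0.050 for hosts with *ATRX*CT, *H2-D1* 0.045, *B2m* 0.059, and *Tap2* -0.052 for hosts with *ATRX*KD. With the flat-slope tumors alone, the sign turned to *H2-D1* 0.0042 and *Psmb10* to *Psmb7* -0.072 for knock-down in Balb/c, *H2-D1* 0.0058 and *Psmb8* to *Psmb5* 0.033 for knock-down in NSG, *H2-D1* 0.082, *Nlrc5* -0.064, *Psmb8* to *Psmb5* -0.12, and *Psmb10* to *Psmb7* -0.057 for hosts with *ATRX*CT, *H2-D1* 0.080, *B2m* 0.10, *Tap2* -0.035, and *Psmb10* to *Psmb7* -0.047 for hosts with *ATRX*KD. With median-ratio scaling, the sign turned to *Psmb8* -0.00028 for knock-down in NSG. With the slope class as a term, the sign turned to *Psmb8* 0.0014 for hosts with *ATRX*CT, *H2-D1* 0.051, *B2m* 0.030, and *Tapbp* 0.020 for hosts with *ATRX*KD. With the mean of the 3 constitutive subunits as partner, the sign turned to *Psmb10* to *Psmb7* -0.064 for knock-down in Balb/c, *Psmb8* to *Psmb5* 0.071 and *Psmb9* to *Psmb6* -0.012 for knock-down in NSG. Leaving out 1 tumor at a time turned the sign within these ranges: *H2-K1* (-0.035 to 0.12), *H2-D1* (-0.11 to 0.10), *B2m* (-0.046 to 0.21), *Tap2* (-0.054 to 0.20), *Tapbp* (-0.050 to 0.080), *Nlrc5* (-0.44 to 0.0051), and *Psmb10* to *Psmb7* (-0.058 to 0.14) for knock-down in Balb/c, *H2-D1* (-0.089 to 0.0049), *Psmb8* (-0.093 to 0.14), *Psmb9* (-0.26 to 0.11), *Psmb8* to *Psmb5* (-0.066 to 0.058), *Psmb9* to *Psmb6* (-0.016 to 0.12), and *Psmb10* to *Psmb7* (-0.093 to 0.017) for knock-down in NSG, *Psmb9* (-0.15 to 0.20) for hosts with *ATRX*CT, *H2-D1* (-0.11 to 0.097), *B2m* (-0.12 to 0.075), *Tapbp* (-0.078 to 0.052), and *Psmb8* (-0.027 to 0.21) for hosts with *ATRX*KD. Over all genes, the calls (higher and lower) moved by over 1.5 times as follows. With a pseudocount of 0.1 they went from 25 and 43 to 63 and 163 (knock-down in NSG), from 131 and 81 to 263 and 153 (hosts with *ATRX*CT), and from 165 and 39 to 346 and 78 (hosts with *ATRX*KD). With no fold threshold these were 547 and 447, 310 and 162, and 411 and 123. Library weights gave 79 and 122 (knock-down in NSG), 4 and 11 against 0 and 1 (knock-down in Balb/c), and 124 and 71 against 0 and 0 for the knock-down difference between hosts, where the slope class gave 5 and 6 and the flat-slope tumors 1 and 1. For the knock-down in Balb/c, 1 fit of all groups gave 2 and 4 and the flat-slope tumors 4 and 3, and 0 genes were called with no filter, with a minimum of 1 FPKM, or with the length trend removed. Fold changes on the log2 (FPKM + 1) scale understate low genes such as *Ifng*, whose host difference with a pseudocount of 0.1 was 3.25 (*ATRX*CT) and 3.50 (*ATRX*KD).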
